A study of Homo sapiens with 16 samples.

Results

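Enrichment of the histone demethylase LSD1 was called repeatedly across cell lines at 684 autosomal regions in which every called stretch of enrichment stayed narrower than 20 kb. The stretches, called islands, come from chromatin immunoprecipitation followed by sequencing (ChIP-seq) with an antibody against LSD1. Islands of the 8 immunoprecipitated (IP) libraries were merged where they shared 1 bp. A merged region was kept if at least 5 of the 8 libraries had an island in it and no single island reached 20 kb, so the regions were chosen by the presence and width of the islands in these same libraries. The 684 regions are 1.64% of all 41637 merged regions, and another 1189 regions were as recurrent but held a wider island.

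LSD1 (KDM1A) removes methyl groups from histone tails and works mostly as part of repressor complexes with CoREST proteins and histone deacetylases, at promoters and enhancers. It binds chromatin through its partners rather than by reading DNA letters itself. The long non-coding RNA HOTAIR is known to bind LSD1 with one end and the histone methyltransferase complex PRC2 with the other, and has been proposed to bring both to chromatin.

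All 4 cell lines are derivatives of human embryonic kidney (HEK) cells. The labels give their names: Epi-CTR, Epi-HOT, Epi-HOT<delta>P and Epi-HOT<delta>L, the last pair written Epi-HOTΔP and Epi-HOTΔL here. What is known of the study beyond the labels is that Epi-CTR serves as control, Epi-HOT expresses HOTAIR, and the deleted forms lack the part that meets PRC2 (ΔP) or LSD1 (ΔL); the promoter and the number of clones behind a line are not given in the sources used here. All were grown alike, without a further treatment in the labels, as 2 independent cultures a line, and islands of each IP library were called over Input chromatin from that culture. Autosomal lists ran from 1114 to 20551 islands. Epi-HOT replicate 2 (1776) and Epi-HOTΔP replicate 1 (1114) had by far the shortest lists and stood apart from the replicate of their line, so results that rest on them are also given without them. The files list no reads, so the depth is unknown, and fewer reads and less LSD1 cannot be told apart where an island is missing.

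Since presence of an island chose the regions, the shares in this and the next 3 paragraphs describe the choice and are not tested. Of the 684 regions, 546 had an island in 5 libraries, 122 in 6, 15 in 7 and 1 in all 8. Just under the limit, 1480 regions without a wide island were called in 4 libraries. Epi-CTR replicate 1 held 97.5% of the 684 regions (95% exact binomial interval 96.1 to 98.5) and replicate 2 held 93.9% (91.8 to 95.5). Epi-HOTΔL replicates held 87.0% (84.2 to 89.4) and 86.4% (83.6 to 88.9). Epi-HOT replicate 1 held 69.2% (65.5 to 72.6) and Epi-HOTΔP replicate 2 held 57.0% (53.2 to 60.8), while Epi-HOT replicate 2 held 23.0% (19.9 to 26.3) and Epi-HOTΔP replicate 1 held 8.77% (6.76 to 11.1). These intervals cover counting error over regions only. Over all 41637 regions the 8 libraries held from 2.61% to 39.2%.

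**Figure D1:**
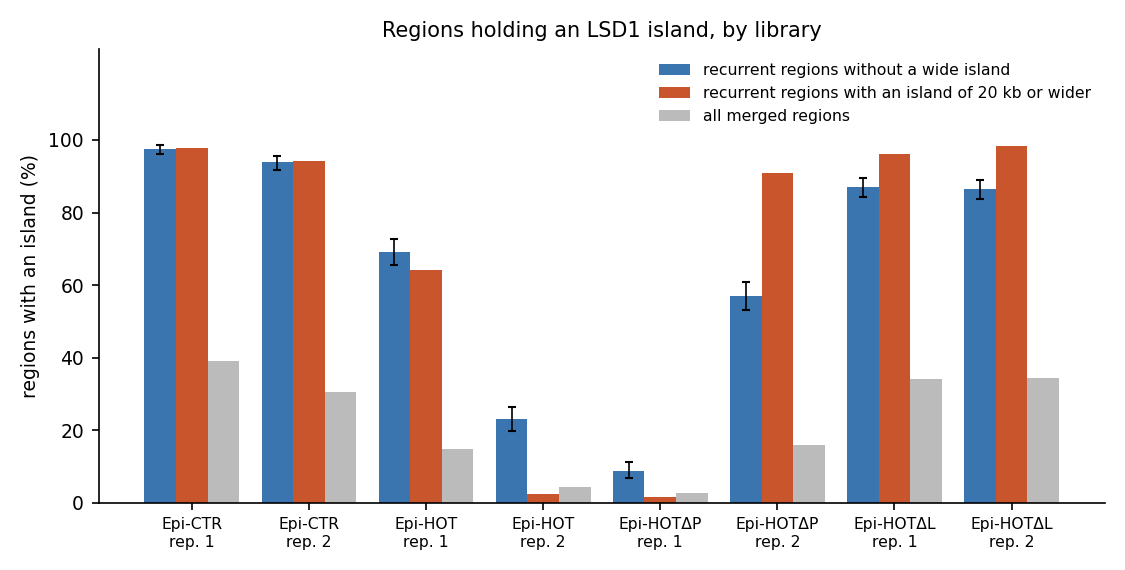
Share of regions (y axis, percent) in which each of the 8 IP libraries (x axis) has an island, for the 684 recurrent regions without a wide island (blue, bars with 95% exact binomial intervals), the 1189 recurrent regions with an island of 20 kb or wider (orange) and all 41637 regions (grey). Epi-HOT replicate 2 and Epi-HOTΔP replicate 1 held 23.0% and 8.77% of the blue set but 2.35% and 1.51% of the orange set, whereas Epi-HOTΔP replicate 2 held 57.0% and 90.9%.

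The recurrent regions without and with a wide island were filled by partly different libraries. Epi-HOT replicate 2 held 157 of the 684 without a wide island but 28 of the 1189 with one, and Epi-HOTΔP replicate 1 held 60 and 18. In Epi-HOTΔP replicate 2 the order was the other way, with 390 regions without and 1081 with a wide island. Both Epi-CTR libraries filled both sets nearly alike, at 97.5% and 93.9% of the regions without and 97.9% and 94.1% of those with a wide island. The number of wide islands also differed between lists, from 32 in Epi-HOT replicate 2 to 2786 in Epi-HOTΔL replicate 2, and its part in these shares was not tested.

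The 684 regions fell into 57 patterns of libraries. The commonest, with 182 regions (26.6%), had islands in both Epi-CTR, both Epi-HOTΔL and the first Epi-HOT library. The next, 142 regions (20.8%), had Epi-HOTΔP replicate 2 in place of Epi-HOT, and 75 regions (10.96%) had both. All 4 libraries of Epi-CTR and Epi-HOTΔL were present in 467 regions (68.3%, and 4.70% of all merged regions), and both short lists were absent from 504 (73.7%, and 93.6% of all). Every line had an island in 247 regions (36.1%), and 437 had islands of 3 lines, the fewest that 5 libraries allow. The share of all merged regions with an island of every line was not counted.

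By line, both Epi-CTR libraries held 625 of the 684 regions (91.4%), a single one 59 and neither 0, which the limit of 5 libraries does not force. Both Epi-HOTΔL libraries held 517 (75.6%), both Epi-HOT libraries 97 (14.2%) and both Epi-HOTΔP libraries 37 (5.41%). Over all 41637 regions the shares held by both replicates were 15.0%, 11.7%, 0.567% and 0.473% in that order. Without Epi-CTR replicate 1 or 2 the rule, 5 of the remaining 7, left 153 or 174 regions. Without Epi-HOTΔL replicate 1 or 2 it left 219 or 239, and without Epi-HOT replicate 1 or Epi-HOTΔP replicate 2 it left 373 or 394. Leaving out Epi-HOT replicate 2 or Epi-HOTΔP replicate 1 left 581 or 647, and leaving out both left 557 with 5 of 6 required. The share held by both Epi-HOT libraries was 33.3% or 31.6% without Epi-CTR replicate 1 or 2, 32.9% or 29.7% without Epi-HOTΔL replicate 1 or 2, and 23.1% without Epi-HOTΔP replicate 2. That of Epi-HOTΔP was 13.7% or 9.77% without Epi-CTR replicate 1 or 2, 13.7% or 13.8% without Epi-HOTΔL replicate 1 or 2, and 9.38% without Epi-HOT replicate 1.

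A typical recurrent region had an outline much wider than its shared core. The merged width had a median of 15 kb (range 0.2 to 53.6 kb), and 178 regions (26.0%) were wider than 20 kb although none of their islands was. The median over all merged regions was 5.8 kb, but merging islands of more libraries widens a region by construction. With wide islands included, the median rose from 4.4 kb for regions in 1 library to 16.2 kb in 4 and 28.3 kb in 5. The difference from all merged regions thus follows in part from the choice and was not tested. The core, defined as the longest stretch covered by the largest number of libraries, had a median of 2 kb and took 14.6% of the merged width (median). In 454 regions (66.4%) at least one window of 200 bp, the unit of the calls, was covered in 5 or more libraries. In the other regions the islands overlapped as a chain, and the best covered window lay in 4 libraries for 175 regions, in 3 for 53 and in 2 for 2. Among the 1189 regions with a wide island 56.0% had a window covered in 5 or more libraries.

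**Figure D2:**
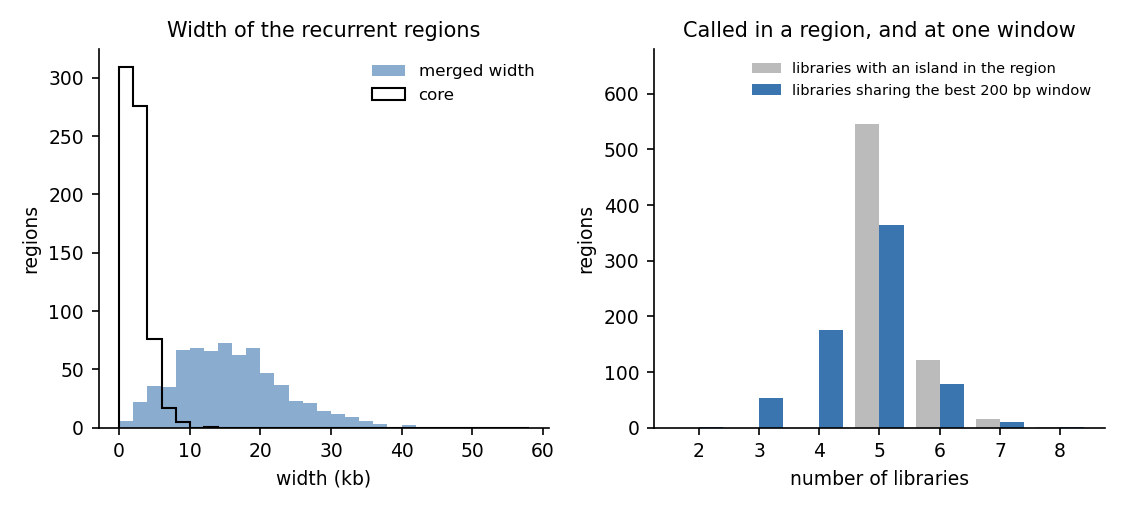
Left, histogram of the merged width (blue) and of the core (black outline) of the 684 regions, in kb, in bins of 2 kb. Right, number of regions (y axis) by the number of libraries with an island anywhere in the region (grey) and by the number that share the best covered 200 bp window (blue): 546 regions were called in 5 libraries, and 364 had their best window in 5.

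Library by library, the median width of the islands inside these regions was near that of their list. The rule kept islands of 20 kb or wider out of the regions but not out of the lists, so width was partly set by the choice. Their median width was 4.2 kb in Epi-CTR replicate 1 against 3.8 kb over its whole list, 6.8 against 7 kb in Epi-HOT replicate 1 and 6.8 against 7.6 kb in Epi-HOTΔL replicate 2. Most pairs of a library and a region had a single island, and 14.5% had more than 1. The outer ends of 2 libraries lay apart by a median of 0.8 to 3.8 kb over the 15 pairs without the short lists, nearest for Epi-HOT replicate 1 with Epi-HOTΔL replicate 2, and by 2 to 7.4 kb over the 13 pairs with one of them.

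The caller's false discovery rate (FDR), the authors' value for each island and the only measurement in the files, was used here to rank islands within a list, as a percent of the list with 0 the strongest. A region's median rank over the libraries that hold it had a median of 38.8% (range 0.0124 to 97.1). Only 45 of the 684 regions had a median rank within the top 10%, and 473 lay in the stronger 50%. By library the regions ranked best in Epi-CTR replicate 1, with a median rank of 21.8%, and worst in Epi-HOT replicate 2, with 62.7%. The FDRs themselves differed in scale between lists. Their median over the regions held was 2.78e-18 in Epi-HOTΔP replicate 1 and between 7.51e-07 and 0.00459 in the other libraries. An FDR of at most 1e-05 was reached in at least 1 library by 521 regions, and in 5 or more libraries by 6. Ranks of the same region in 2 libraries were at most weakly related. Spearman's rho across regions was 0.32 between the Epi-CTR replicates (n = 625 regions) and 0.05 between those of Epi-HOTΔL (n = 517). Between the replicates of Epi-HOT rho was -0.07 (n = 97) and between those of Epi-HOTΔP -0.03 (n = 37). It lay between 0.04 and 0.32 for the 15 pairs without the short lists and between -0.19 and 0.30 for the 13 pairs with one. These are descriptions across regions that share libraries, not replicates.

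The best median rank belonged to a region of 2 kb on chromosome 20, chr20:26188601-26190600 (hg19), which lies beside the centromere. Its islands spanned 1.8 kb with the same start and end in 6 libraries and 2 kb in Epi-HOTΔL replicate 2. The FDRs were 1.39e-187 and 7.18e-38 in the Epi-CTR replicates and 5.65e-161 and 2.12e-176 in the Epi-HOTΔL replicates. They were 2.97e-17 and 2.1e-17 in the Epi-HOT replicates and 9.84e-21 in Epi-HOTΔP replicate 2. Epi-HOTΔP replicate 1 had no island there, so the region was called in all lines and missing from 1 library.

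The region called in all 8 libraries, chr4:57937801-57949600 (hg19), looked different. It was 11.8 kb wide, but the stretch common to all 8 libraries was 0.6 kb, chr4:57943601-57944200. The FDRs were 6.69e-26 and 3.96e-11 in Epi-CTR and 5.14e-15 and 0.000262 in Epi-HOT. They were 1.65e-19 and 0.000355 in Epi-HOTΔP and 3.14e-10 and 0.000203 in Epi-HOTΔL. The 1.65e-19 of Epi-HOTΔP replicate 1 ranked only at 37.9% of its list. The islands of Epi-CTR, Epi-HOTΔP and Epi-HOT replicate 2 reached mostly to the right of this core, that of Epi-HOT replicate 1 reached to its left, and those of Epi-HOTΔL stayed near it.

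Another form was a region whose edges nearly coincided over a long stretch, chr10:127573601-127588000 (hg19). Its islands were 13 to 14.2 kb wide in 7 libraries, and 12.4 kb of the 14.4 kb was common to all 7. Here Epi-HOTΔP replicate 1 had an FDR of 3.46e-128, the smallest of any of its islands in the 684 regions, followed by Epi-HOT replicate 2 with 5.12e-23 and replicate 1 with 9e-12. Epi-CTR was much weaker, at 0.000108 and 0.00819, as was Epi-HOTΔL, at 0.00198 and 0.00168. Epi-HOTΔP replicate 2 had no island.

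**Figure D3:**
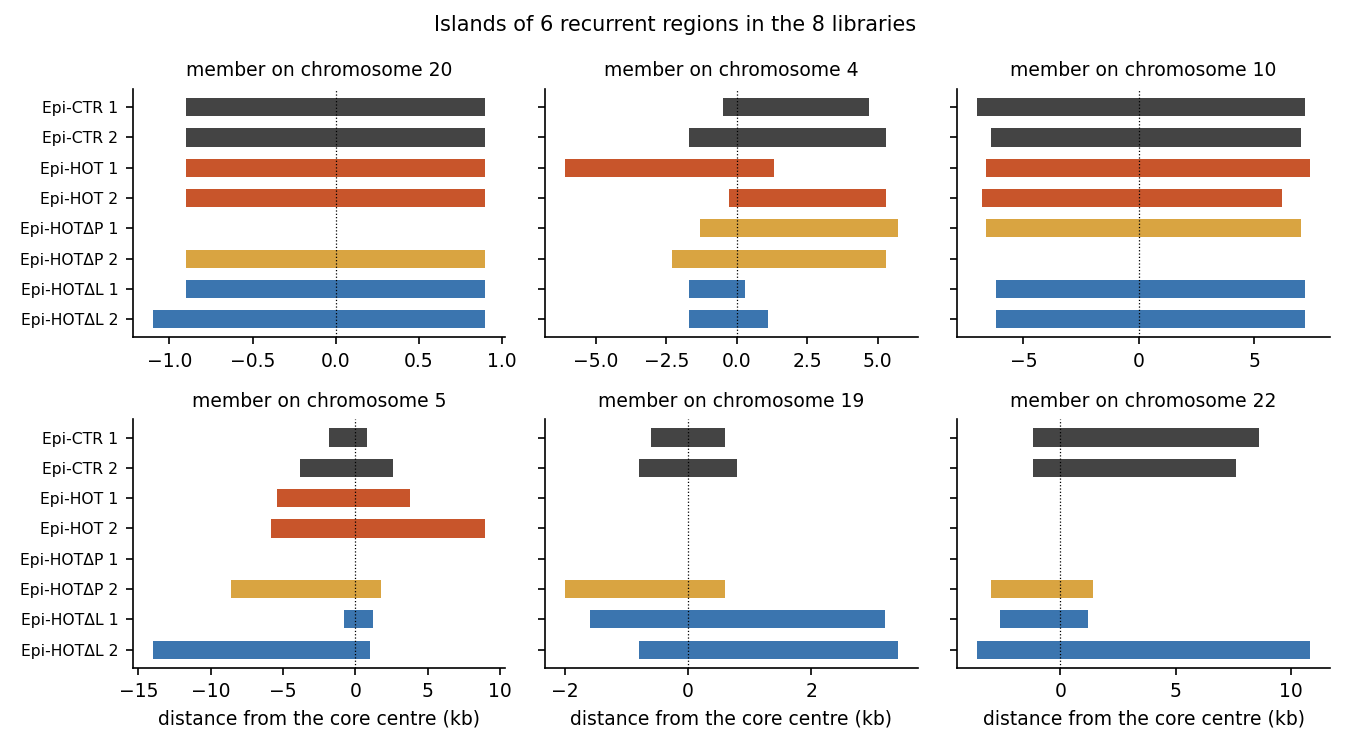
Islands of 6 named regions in the 8 IP libraries (rows, coloured by line), drawn as distance in kb from the centre of the core (dotted line). The islands on chromosomes 20 and 10 share their ends, those on chromosomes 4 and 5 meet only around the core, and the regions on chromosomes 19 and 22 have no island in the Epi-HOT libraries or Epi-HOTΔP replicate 1.

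Other regions in 7 libraries were weaker in at least some of them. The region chr5:156988401-157011400 had FDRs between 2.72e-27 (Epi-CTR replicate 2) and 1.02e-05 (Epi-HOTΔL replicate 2) in every library but Epi-HOTΔP replicate 1. Its islands grew from 2 kb in Epi-HOTΔL replicate 1 to 15 kb in replicate 2 of the same line around a common 1.6 kb. The region chr22:26996401-27027600 was strong in Epi-CTR (4.57e-29 and 1.37e-25) and barely called in Epi-HOT replicate 2 (0.0310). At chr7:46182601-46188600 the islands were all narrow, at 2 to 5.2 kb, with FDRs from 1.3e-24 in Epi-CTR replicate 1 to 0.0456 in Epi-HOTΔL replicate 2. The regions chr3:9982401-10004000, chr13:93913001-93923600 and chr20:34396801-34420800 also lacked an island only in Epi-HOTΔP replicate 1. By contrast chr6:17862201-17883600 lacked one only in Epi-HOTΔL replicate 2, chr6:25170401-25179200 only in Epi-HOTΔL replicate 1 and chr9:68458401-68460000 only in Epi-HOT replicate 1.

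Regions in 5 or 6 libraries also reached high ranks. Of the 10 best by median rank, 8 were absent from both short lists, as were 73.7% of the 684 regions and 93.6% of all merged regions. The limit of 5 libraries then lets at most 1 further library be missing. The region chr19:13252201-13268800 had FDRs of 2.59e-19 and 1.21e-12 in Epi-CTR, 6.49e-08 and 2.7e-13 in Epi-HOTΔL and 0.0012 in Epi-HOT replicate 1, over a core of 8.6 kb. The region chr10:88157801-88174000 was called in the same 5 libraries, with 1.05e-18 in Epi-CTR replicate 1 and 4.97e-18 in Epi-HOTΔL replicate 2. So was chr4:15002801-15007000, whose islands measured 3 to 4.2 kb in each. The regions chr9:132219201-132233800 and chr22:27631801-27653400 had islands in both Epi-HOT replicate 1 and Epi-HOTΔP replicate 2 as well as in Epi-CTR and Epi-HOTΔL.

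In 8 regions, a set picked out after the values were seen, all libraries that held the region shared at least 80% of its width. Besides those on chromosomes 20 and 10 above, they were chr9:68995801-69002600, chr10:21782201-21786600, chr10:65224601-65227400, chr20:29645401-29653800, chr22:18718001-18718400 and chr22:18721201-18721400. The last pair are the narrowest of the 684: each was called as exactly the same 0.4 kb or 0.2 kb in the same 5 libraries, both of Epi-CTR and of Epi-HOTΔL with Epi-HOTΔP replicate 2. Their FDRs were modest, between 0.000113 and 0.0315. Both regions on chromosome 20 flank its centromere, and the pair on chromosome 22 lies in a part of the long arm known for large duplications. The region chr9:68995801-69002600 lies near the centromere of chromosome 9, as does chr9:68458401-68460000, named above among those in 7 libraries. Such places are rich in repeated sequence, and whether reads can be placed there uniquely was not tested.

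At the other end, the widest merged regions were chr3:9790001-9843600 (53.6 kb), chr15:68861201-68911200 (50 kb) and chr3:47764001-47813800 (49.8 kb). The last had no window covered in more than 4 libraries. At the width limit, the widest single island was 19.8 kb in chr6:17862201-17883600, chr9:117865801-117885800 and chr15:68861201-68911200, and just outside it was 20 kb in chr2:242146801-242196000 and chr10:74049801-74085600 (a region on chromosome 8 had the same value).

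Chromosome was not used in the choice. Chromosome 1 carried 72 of the 684 regions (10.5%, against 10.2% of all merged regions) and chromosome 2 carried 59 (8.63%, against 8.27%). Chromosome 10 carried 54 (7.89%, 95% exact binomial interval 5.99 to 10.2, against 5.97% of all merged regions). Per length, chromosomes 22 and 20 were the densest, with 6.15 and 5.74 regions per 10 Mb, and chromosome 7 the sparsest, with 1.13. Chromosome 22 held 3.07% of the 684 regions, 2.33% of all merged regions and 1.23% of the autosomal span. For chromosome 7 these shares were 2.63%, 4.92% and 5.71%. As a percent of a chromosome's own merged regions, chromosome 9 was highest (2.57%) and chromosome 7 lowest (0.878%), with 2.17% on chromosome 22. Chromosome 20 held 5.26% (3.71 to 7.21) of the 684 regions, 3.38% of all merged regions and 2.25% of the autosomal span. Only 15 of the 684 (2.19%, 1.23 to 3.59) lay on chromosome 19, which is rich in genes, beside its 2.11% of the span and 3.09% of all merged regions. Of the recurrent regions with a wide island 168 (14.1%, 12.2 to 16.2) lay there.

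**Figure D4:**
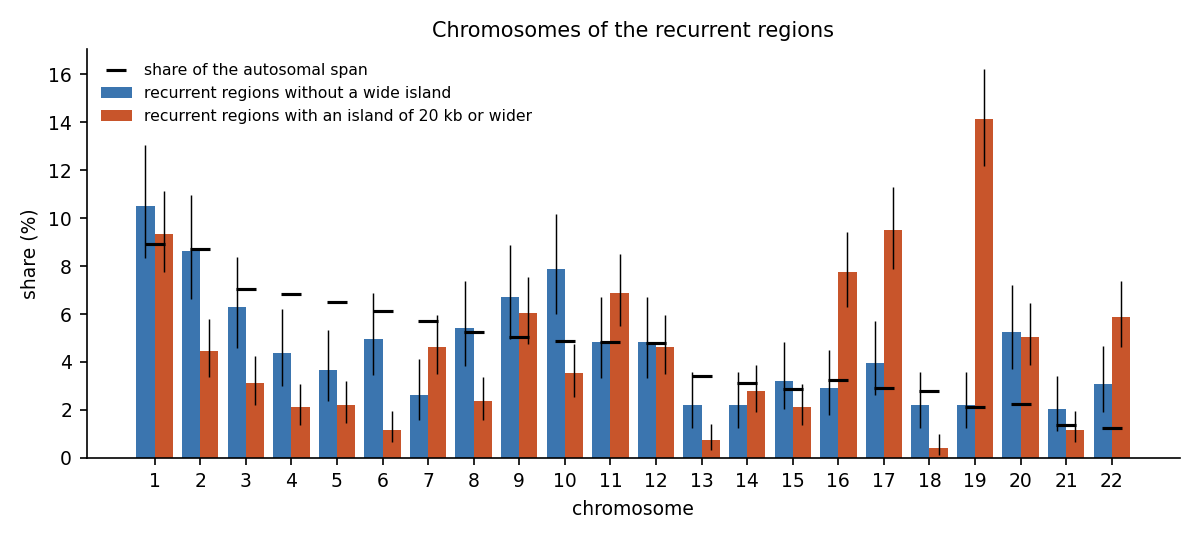
Share of the recurrent regions on each autosome (percent), without a wide island (blue, n = 684) and with one (orange, n = 1189), with 95% exact binomial intervals over regions; black dashes give the chromosome's share of the autosomal span. On chromosome 19 the shares were 2.19% and 14.1%, on chromosome 17 they were 3.95% and 9.50%, and on chromosome 6 they were 4.97% and 1.18%. Of all merged regions 3.09%, 4.79% and 5.51% lay on chromosomes 19, 17 and 6.

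The same contrast between recurrent regions without and with a wide island held on chromosomes 17 (3.95% and 9.50%) and 16 (2.92% and 7.74%), and the opposite one on chromosomes 6 (4.97% and 1.18%), 2 (8.63% and 4.46%) and 18 (2.19% and 0.421%). These are shares of 2 sets divided by island width, and the difference was not tested. Of all merged regions 4.79% lay on chromosome 17, 3.70% on 16, 5.51% on 6, 8.27% on 2 and 2.25% on 18. On each of these chromosomes that share was nearer to the one without a wide island than to the one with it. All 15 regions on chromosome 19 had islands in Epi-HOTΔL replicate 2 and both Epi-CTR libraries, and 12 had one in Epi-HOTΔL replicate 1. Epi-HOT replicate 1 held 12, Epi-HOTΔP replicate 2 held 7, and Epi-HOT replicate 2 and Epi-HOTΔP replicate 1 held none. Of all recurrent regions without a wide island, the Epi-CTR replicates held 97.5% and 93.9% and the Epi-HOTΔL replicates 87.0% and 86.4%. Epi-HOT replicate 1 held 69.2% of these and Epi-HOTΔP replicate 2 held 57.0%, and 73.7% were missing from both short lists. The share on chromosome 19 was 0.654% or 0.575% without Epi-CTR replicate 1 or 2, and 4.84% where wide islands were removed before merging. It also moved with the rule, to 0.794% and 4.46% with width limits of 10 and 30 kb, 0.725% with 6 libraries and 3.92% at an FDR of 0.001.

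Most regions had no other member within 100 kb. Spacing was not compared with that of all merged regions or of randomly placed regions. The nearest other member lay at a median of 684.8 kb, 386 regions (56.4%) had one within 1 Mb and 109 (15.9%) within 100 kb. Joined at that distance they formed 47 pairs and 5 groups of 3, at chr1:228632801-228692600, chr6:57429001-57567600, chr17:54747601-54834400, chr20:4016601-4119000 and chr22:18688001-18721400. They occupied 226 of 300 bins of 10 Mb, and the fullest bin, from 40 to 50 Mb of chromosome 20, held 12.

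Whether recurrence carries over to a library that had no part in the choice was asked by leaving each library out in turn. The rule was applied to the other 7 (5 or more of 7, no island of 20 kb or wider) and the regions were read in the eighth. Of such regions, Epi-CTR replicate 1 held 88.9% (136 of 153, 95% exact binomial interval 82.8 to 93.4) and replicate 2 held 75.9% (132 of 174, 68.8 to 82.0). Epi-HOTΔL replicates held 59.4% (130 of 219) and 61.1% (146 of 239). Epi-HOT replicates held 43.4% (162 of 373) and 9.29% (54 of 581), and Epi-HOTΔP replicates 3.55% (23 of 647) and 25.4% (100 of 394). The libraries fell in much the same order over all merged regions of the other 7: Epi-CTR replicates held 31.0% and 24.4% of these, Epi-HOTΔL replicates 23.5% and 31.6%, Epi-HOT replicates 13.6% and 3.35%, and Epi-HOTΔP replicates 1.71% and 13.9%. Recurrent regions with a wide island were held more often than those without in 6 of 8 libraries; the exceptions were Epi-HOT replicate 2 (1.53%) and Epi-HOTΔP replicate 1 (0.679%).

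In all 8 libraries the share rose at each step from regions called in 1 to those called in 5 or more of the other 7. Regions called in a single other library were held in 18.8% of cases by Epi-CTR replicate 1 and in 15.1% by replicate 2, and in 8.01% by Epi-HOT replicate 1. In Epi-HOTΔP replicate 1 the rise was small, from 1.63% (1.48 to 1.80) to 3.55% (2.27 to 5.29). More recurrent regions were also wider, with medians of 12.8 to 17 kb against 4.2 to 5 kb for those in a single library, so bases were counted too. By this measure the islands of the library left out covered 4.83 to 10.6 times as much of the recurrent regions as of the autosomal span, against 2.07 to 3.01 times for regions of a single library. By bases the rise at each step held in 4 of 8 libraries and not in Epi-HOT replicate 2, Epi-HOTΔP replicate 1 and 2 or Epi-HOTΔL replicate 2. The recurrent class lay above the class of 4 libraries in 6 of 8; the exceptions were Epi-HOTΔP replicate 2 (4.98 against 5.44 times) and Epi-HOTΔL replicate 2 (4.83 against 6.10 times).

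**Figure D5:**
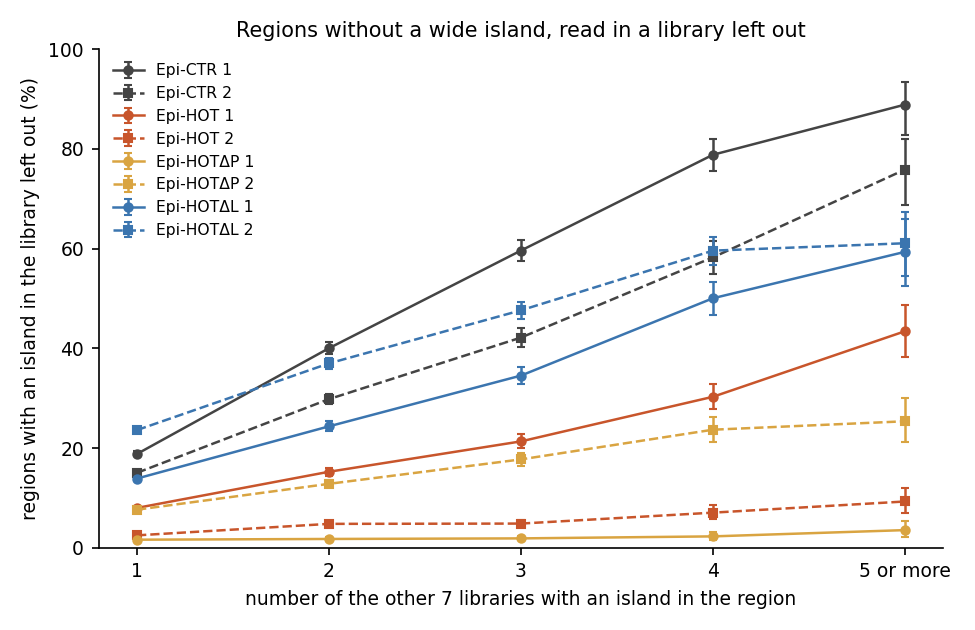
Share of regions without a wide island that hold an island in a library left out of the choice (y axis, percent, with 95% exact binomial intervals over regions), by the number of the other 7 libraries with an island there (x axis); colours are lines, circles and solid lines replicate 1, squares and broken lines replicate 2. The share rises from left to right in all 8 libraries and ends between 3.55% (Epi-HOTΔP replicate 1) and 88.9% (Epi-CTR replicate 1).

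Held-out islands in recurrent regions also ranked better by FDR than those in regions of a single other library in 7 of 8 libraries. The median rank was 24.3% against 55.6% in Epi-CTR replicate 1, 20.0% against 52.9% in Epi-CTR replicate 2 and 32.6% against 53.4% in Epi-HOT replicate 1. The exception was Epi-HOT replicate 2, with 67.5% against 50%. In that library the islands that met recurrent regions were thus among its weaker ones.

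With both libraries of a line left out and 4 or more of the other 6 required, both Epi-CTR libraries held 59.3% (131 of 221, 95% exact binomial interval 52.5 to 65.8) of the regions and neither held 14.5%. Both Epi-HOTΔL libraries held 32.6% (138 of 423, 28.2 to 37.3) and neither 29.3%. For Epi-HOT the shares were 3.36% (49 of 1457, 2.50 to 4.42) in both and 62.1% in neither, and for Epi-HOTΔP 0.860% (13 of 1511, 0.459 to 1.47) and 74.8%. Regions called in a single one of the 6 were held by both left-out libraries in 7.77%, 6.63%, 0.179% and 0.242% of cases, in the order Epi-CTR, Epi-HOTΔL, Epi-HOT and Epi-HOTΔP.

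The lines whose HOTAIR keeps the LSD1 part, Epi-HOT and Epi-HOTΔP, were then set against Epi-CTR and Epi-HOTΔL on these held-out shares. The means were 20.4% ± 17.9 (SD, n = 4 libraries) and 71.3% ± 13.9 (SD, n = 4), a difference of -50.9 percentage points, and the highest library of the first arm (43.4%) lay below the lowest of the second (59.4%). The exact two-sided permutation p was 0.0286, the smallest that 70 regroupings allow, and 0.0571 after Benjamini-Hochberg adjustment over 4 measures. Autosomal lists held 1114 to 8077 islands in the first arm and 14899 to 20551 in the second. List length thus split the arms fully as well, and the test cannot tell it from the form of HOTAIR. Each share was read on a different set of regions, chosen by the other 7 libraries with the replicate of the same line among them. The sets held 153 to 239 regions for Epi-CTR and Epi-HOTΔL and 373 to 647 for Epi-HOT and Epi-HOTΔP. The 8 shares are thus not independent, which the test does not account for. All merged regions separated the arms as fully, at 8.14% ± 6.51 and 27.6% ± 4.26 (SD, n = 4 each, exact permutation p = 0.0286, adjusted 0.0571). Relative to that background, the recurrent regions were held 2.47 ± 0.629 and 2.61 ± 0.513 times as often (SD, n = 4 each), with overlapping arms (exact permutation p = 0.743, adjusted 0.743). The arms thus separated over all regions too, and both comparisons with all regions were added after seeing the data. The last measure, fold coverage in bases over the span, was 6.22 ± 1.52 against 7.95 ± 2.68 (SD, n = 4 each), also with overlapping arms (exact permutation p = 0.371, adjusted 0.495).

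List length moved with this result. In the 6 libraries without Epi-HOT replicate 2 and Epi-HOTΔP replicate 1, with 4 of the other 5 required, the difference was -36.0 percentage points (exact permutation p = 0.0667, the smallest possible). With these 6 lists also cut to their 6504 strongest islands it was -14.3 percentage points (exact permutation p = 0.4). Both alternatives were added after seeing the data. With the lists cut, Epi-HOT replicate 1 held 53.6% (119 of 222, 95% exact binomial interval 46.8 to 60.3), above Epi-HOTΔL replicate 1 with 38.5% (32.3 to 45.0) and near Epi-HOTΔL replicate 2 with 51.6%. Epi-HOTΔP replicate 2 held 30.9% (25.2 to 37.1), the lowest of the 6, and the Epi-CTR replicates 77.2% and 59.2%. Dropping Epi-CTR replicate 1 or 2 from the main test gave -45.0 or -49.4 percentage points with an exact permutation p of 0.0571 for each. Each arm holds 2 lines with 2 libraries each, and the p-values treat the 4 libraries as separate.

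For the comparisons between lines, regions were counted only where both replicates of one line and neither of the other had an island; the choice of the 684 regions used these calls, so nothing is read from the counts. Both Epi-CTR libraries and neither Epi-HOT library had an island in 151 of the 684 regions (22.1%), and in 10.1% of all 41637 regions. The opposite held for 0 of the 684, against 0.106% of all. The 151 were led by chr1:155211601-155229400, where the Epi-CTR replicates had FDRs of 1.98e-16 and 4.98e-18, chr19:3153601-3159000 (2.98e-24 and 3.94e-12) and chr22:36933601-36948000 (8.85e-25 and 3.23e-16). All 3 were also called in both Epi-HOTΔL libraries and in Epi-HOTΔP replicate 2, as were 142 of the 151. With both Epi-HOT libraries missing, the limit of 5 libraries lets no more than a single other library be absent. The short list of Epi-HOTΔP replicate 1 was the absent one in these 142, so this sharing follows largely from the choice.

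The share of 22.1% depended on Epi-HOT replicate 1. With Epi-HOT replicate 1 left out and replicate 2 read alone, 71.0% of the regions were held by both Epi-CTR libraries and not by Epi-HOT, and with replicate 1 read alone, 27.0%. With 1 library of Epi-CTR or Epi-HOTΔL or the second of Epi-HOTΔP left out, the share was between 0.575% and 1.67%. A region missing from both Epi-HOT libraries then needs an island in every other remaining library, the short list of Epi-HOTΔP replicate 1 among them. Without Epi-HOTΔP replicate 1 the share was 21.9%. Without both short lists it was 25.9%.

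Against Epi-HOT, 146 regions (21.3%, and 7.85% of all regions) were held by both Epi-HOTΔL libraries and by neither Epi-HOT library. This count and the one of Epi-CTR share the Epi-HOT libraries. The share was 68.9% without Epi-HOT replicate 1, 25.6% without replicate 2, and 0.575% to 1.67% without a library of Epi-CTR or Epi-HOTΔL or without Epi-HOTΔP replicate 2. It was 21.9% without Epi-HOTΔP replicate 1. Only 5 regions (0.731%, and 0.190% of all) were held by both Epi-HOT libraries and by neither Epi-HOTΔL library, at chr18:57402601-57419800, chr10:14432401-14452800, chr15:52119001-52145800, chr17:45207801-45218000 and chr1:209556401-209581000, all of which both Epi-CTR libraries held too. Only chr17:45207801-45218000 had a window common to all of its libraries; its FDRs were 0.000658 and 2.63e-12 in Epi-HOT and 3.53e-37 and 0.00355 in Epi-HOTΔP.

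Between the forms with and without the PRC2 part, 64 regions (9.36%, and 0.425% of all) were held by both Epi-HOT and neither Epi-HOTΔP library, and 6 (0.877%, and 0.295% of all) the other way. Of the 6, chr17:54747601-54769600 had a window common to its 5 libraries, with FDRs of 5.16e-07 and 5.29e-06 in Epi-HOTΔP. The regions chr1:85752401-85783000, chr10:17267001-17285200, chr3:45089201-45108200 and chr12:107785001-107816400, and one on chromosome 8, had none.

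Against Epi-CTR, both Epi-HOTΔP libraries lacked an island in 264 regions that both Epi-CTR libraries held (38.6%, and 10.0% of all regions), and both Epi-HOTΔL libraries in 15 (2.19%, and 5.61% of all). No region was held by both libraries of either deleted form and by neither Epi-CTR library, against 0.221% of all regions for Epi-HOTΔP and 3.65% for Epi-HOTΔL. A region absent from both Epi-HOTΔL libraries needs 5 of the other 6. The best of the 15 by median rank was chr13:33844601-33858400, with an FDR of 9.06e-09 and 9.58e-11 in Epi-CTR, 9.17e-16 in Epi-HOT replicate 2, 2.19e-70 in Epi-HOTΔP replicate 1 and 0.00264 in Epi-HOTΔP replicate 2. Another, chr20:29645401-29653800, flanks the centromere of chromosome 20 on the other side from the region with the best rank. Its smallest FDRs were those of Epi-HOT replicate 2 (5.07e-14) and Epi-HOTΔP replicate 1 (1.08e-29), as in the region on chromosome 13. FDRs of Epi-HOTΔP replicate 1 tended to be small, with a median of 2.78e-18 over the regions it held.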

How the data were processed

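The files are 8 lists of islands, 1 per IP library. Each deposited island carries 1 value, a p-value for enrichment above Input adjusted as a false discovery rate (FDR) by the authors. Bowtie2 2.1.0, SICER 1.1 and the hg19 build are named in the submitters' processing notes, without their steps. Per the labels, windows of 200 bp, a gap of 1000 bp and an FDR of 0.05 were used, and replicates were called separately; the lists went through a further filter not described in the sources used here. No reads or depths are listed.

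Here, autosomal islands were merged at 1 bp; coordinates count from 1. Regions were named by a written rule: those in 7 or 8 libraries (the best 12), the 10 best by median FDR rank, 3 on each side of the width limit, the 3 narrowest and widest, and 3 per main comparison. The members and lists were chosen with earlier results of these data known. Intervals are exact 95% binomial intervals. Held-out shares were compared by an exact permutation test. On simulated lists the counting recovered 200 of 200 planted regions. Genes and sequences were not used here, as the gene tables at hand are of another build. Alternatives changed the FDR limit, merging, number of libraries, island width, list length and libraries. Computations used Python 3.11.15, numpy 2.4.6, scipy 1.17.1 and matplotlib 3.10.9.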

Additional observations from a re-analysis of the deposited data

Results flagged for a closer look

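The rule was written for autosomes, so chromosome X was outside every comparison. Applied there, it found 1 of 142 merged regions, chrX:152058601-152071000 (hg19), with an island in 5 libraries and none of 20 kb or wider. Its FDRs were 9.66e-11 and 9.37e-08 in the Epi-CTR replicates, 0.000358 and 0.000396 in the Epi-HOTΔL replicates and 0.000897 in Epi-HOT replicate 1, with islands of 3.4 to 12.4 kb.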

How the results depend on the processing

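Of the main number of 684 regions, stricter lists left few: 51 at an FDR of 0.001, 6 at 1e-05 and 7 with lists of equal length (1114 islands). Requiring 4 or 6 libraries gave 2164 or 138, and a width limit of 10 kb gave 252. Leaving out each library gave 153 to 647. The median width was 13.4 kb at an FDR of 0.001, 16.4 kb with islands within 1 kb merged, 13.2 and 16.9 kb with 4 and 6 libraries, 8.6, 12.5 and 19.2 kb with limits of 10, 15 and 30 kb, 16.6 kb with wide islands removed before merging, and 12.8 to 17 kb without each library.

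The share held by both Epi-CTR and neither Epi-HOT library, in the order FDR 0.001, FDR 1e-05, 4 libraries, 6 libraries, limits of 10, 15 and 30 kb, early removal of wide islands, equal lists and both short lists left out, was 17.6%, 0%, 34.0%, 0.725%, 11.5%, 18.6%, 27.6%, 28.7%, 0% and 25.9% (0.575% to 71.0% without each library). With Epi-HOTΔL in place of Epi-CTR it was 15.7%, 0%, 28.9%, 0.725%, 11.1%, 17.8%, 27.1%, 28.0%, 0% and 25.9% (0.575% to 68.9%).

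At FDR 0.001, FDR 1e-05, 4 libraries, 6 libraries, the 10 kb limit and equal lists, both Epi-CTR libraries held 98.0%, 100%, 75.8%, 95.7%, 94.4% and 100%, both Epi-HOT libraries 21.6%, 33.3%, 6.84%, 34.1%, 21.4% and 42.9%, and both Epi-HOTΔL libraries 68.6%, 16.7%, 54.3%, 87.7%, 71.8% and 14.3%. Both Epi-HOTΔP libraries held 0%, 3.10%, 11.6% and 0% at FDR 1e-05, 4 libraries, 6 libraries and equal lists. With a limit of 30 kb Epi-HOT had 10.8% and Epi-HOTΔL 79.6%, and Epi-HOTΔL had 84.9% without both short lists. Without each library the ranges were 92.1% to 96.5% (Epi-CTR), 14.7% to 33.3% (Epi-HOT), 3.96% to 13.8% (Epi-HOTΔP) and 79.0% to 87.9% (Epi-HOTΔL).

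The held-out difference was -18.3 percentage points at an FDR of 1e-05 (exact permutation p = 0.571), -44.7 with 6 of 7 libraries (0.0571) and -12.8 with equal lists (0.657), where each share rests on 3 to 7 regions. It was -36.9 with both short lists dropped from the test and -36.0 with 6 libraries and 4 of 5 required (0.0667 each, the smallest possible), and -14.3 with those 6 lists also cut to equal length, all 3 added after seeing the data. It ranged from -58.6 to -45.0 without each library. With regrouping within replicate numbers as a block, the difference was -50.9 with an exact permutation p of 0.0556, the smallest that 36 regroupings allow. Depth is unknown, so it cannot be told whether missing islands are missing reads. The cause of these changes was not tested.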
